A study of Panax notoginseng with 12 samples.

Results

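Defensin-like peptides and snakins are small cysteine-rich secreted proteins, and the loci described as such were followed in roots of P. notoginseng given different forms of nitrogen. The members were the loci whose first protein database description named a defensin, a snakin, a gibberellin-regulated protein or a GASA protein (gibberellic acid stimulated in Arabidopsis). Of 146330 assembled loci, 11 matched, and they comprised 4 defensin-like loci and 7 snakin or gibberellin-regulated loci. FPKM are fragments per kilobase of transcript, scaled between libraries by the authors with Cuffnorm, and so a level per length. The members reported were those above 1 FPKM in at least 1 library. This held for 9 of the 11 and for 38010 loci of the series. Their levels therefore chose them, and the levels are given as a description.

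Seedlings 2 years old were grown in nutrient solution, kept for 1 week on a complete solution, and then moved to 1 of 4 treatments. CK received no nitrogen, 15A received 15 mM ammonium as ammonium sulfate, 15N received 15 mM nitrate as calcium nitrate, and 15AN received 15 mM of each as ammonium nitrate. All groups, CK included, had a low level of ammonium nitrate in the earlier complete solution, and all treatment solutions held a nitrification inhibitor. Roots of 3 seedlings per treatment were taken on day 3, and 3 libraries per group were made from pooled RNA, 12 in all. Whether the 3 libraries came from separate pools is not given in the sources used here, so p-values measure only the spread between libraries, which may be technical. GEO's labels give the seedlings as 3 days old, which differs from the methods of the study. The values came from whole roots, in which fewer cells of a type and less RNA per cell cannot be told apart.

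Plant defensins are short basic peptides held in a compact fold by disulfide bonds, and many of them inhibit the growth of fungi. Snakins were first purified from potato as antimicrobial peptides and belong to the GASA family, whose members share a C-terminal domain rich in conserved cysteines. In Arabidopsis and other plants many GASA genes respond to gibberellin, and family members act in root growth, flowering and defence.

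The libraries differed in their sums of FPKM, which ran from 1420310 to 1517711 in CK, against 2042250 to 2593466 for 15A and 2002096 to 2174581 for 15N, while 15AN lay between 1776098 and 1800638. Bringing all libraries to the same total moved the median log2 fold change of all tested loci against CK to -0.53 for 15A, -0.44 for 15N and -0.23 for 15AN, where with the authors' scaling it was 0.08, 0.08 and 0.07. The number of reads per library was not used here, so the counting error behind each value is unknown. Markers of roots (9 loci, of which 4 were above 1 FPKM and none was at 0 in every library) were low, and summed to 12.01 to 13.4 FPKM in CK, 3.78 to 17.7 in 15A, 12.1 to 13.4 under 15N and 11.4 to 14.9 under 15AN. Markers of leaves (26 loci, 17 of them above 1 FPKM and 6 at 0 in every library) summed to 635 to 681 FPKM in CK, against 231 to 751 for 15A and 273 to 293 for 15N, while 15AN lay between 250 and 268. 15A replicate 1 had the highest leaf marker sum and the lowest root marker sum of the 12 libraries and stood apart from the other 15A libraries in several members, as given below. The part of this difference in the results was not tested.

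XLOC_077451, described as defensin-like protein 1 with its best match in the butterfly pea Clitoria ternatea, was the most abundant member by far. The locus overlaps the annotated gene Ppse_ynau_059359 on the plus strand of scaffold23887:19652-32258 (draft P. notoginseng assembly). Its FPKM was 32240, 35759 and 33236 in CK, against 62605, 57148 and 50605 for 15A, 34623, 31947 and 39099 for 15N and 35563, 34983 and 33653 for 15AN. All 3 libraries of 15A lay above every other library, while the libraries of CK, 15N and 15AN overlapped. The mean FPKM was 33745 ± 1814 (SD, n = 3) in CK, against 56786 ± 6008 for 15A, 35223 ± 3614 for 15N and 34733 ± 979 for 15AN. It held 92.3 to 95.9% of the summed FPKM of the members in each library, and ranked between place 2 and place 6 among all loci.

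Differences were tested with limma on log2(FPKM + 1), and a locus was called when the log2 fold change exceeded 1 in size with an adjusted p below 0.05. XLOC_077451 was higher in 15A than in CK by a log2 fold change of 0.75 ± 0.14 (SE, 95% interval 0.44 to 1.05, adjusted p = 0.0012), and since the change was under 1 it was not called. At the same log2 fold change the adjusted p was 0.011 with a pseudocount of 0.1 and 0.47 when no filter on low loci was set, so its significance also depended on these choices. The log2 fold change against CK was 0.06 (interval -0.25 to 0.36, adjusted p = 0.75) in 15N and 0.04 (interval -0.26 to 0.35, adjusted p = 0.83) in 15AN. The size of these differences depended on the scaling. When all libraries were brought to the same total, the log2 fold change of XLOC_077451 in 15A against CK was 0.12 (adjusted p = 0.26). The same scaling gave -0.47 (adjusted p = 0.0009) for 15N and -0.25 (adjusted p = 0.038) for 15AN, and quantile normalization gave -0.50 for 15A. Quantile normalization sets a value by its rank in the library. The locus ranked 2 in each CK library and 3 to 6 in 15A, so that value follows a shift among the top ranks.

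As a share of the library's summed FPKM, XLOC_077451 took 2.23, 2.36 and 2.34% in CK, against 2.41, 2.61 and 2.48% for 15A, 1.59, 1.60 and 1.80% for 15N and 2.002, 1.94 and 1.88% for 15AN. On this scale the 6 libraries with nitrate lay below the 6 without it. With the same total, however, the median of all tested loci also fell against CK, by -0.44 in 15N and -0.23 in 15AN. The changes of XLOC_077451, -0.47 and -0.25, were close to these medians. In 15A the locus was at 0.12, above a median of -0.53. The plot of XLOC_077451 on both scales shows that 15A stood out in FPKM, and that 15A and CK lay close together in the share.

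**Figure D1:**
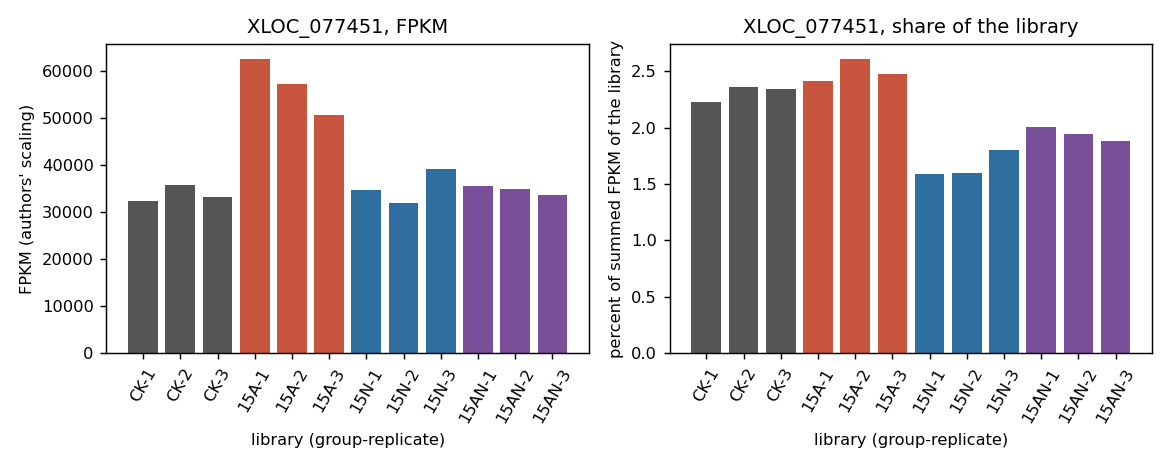
XLOC_077451 (defensin-like protein 1) in each of the 12 libraries, as FPKM scaled by the authors (left) and as a percentage of the summed FPKM of that library (right), with 1 bar per library. The 15A libraries reach 50605 to 62605 FPKM, above the other 9, while their share of 2.41 to 2.61% is close to the 2.23 to 2.36% of CK.

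XLOC_077450, described as defensin-like protein 19 of Eucalyptus grandis, was the second most abundant member. It was assembled on the plus strand in the same interval as XLOC_077451, scaffold23887:19652-32258, and the files give it no gene name. Its FPKM was 1451, 1518 and 1523 in CK, against 2467, 3108 and 3020 for 15A, 1386, 1357 and 1474 for 15N and 1330, 1226 and 1270.0 for 15AN. The 15A libraries lay above all others, and the 15AN libraries lay below all others. The log2 fold change in 15A against CK was 0.93 ± 0.09 (SE, adjusted p = 2.1e-05), just under the threshold, and without 15A replicate 1 it was 1.03 (adjusted p = 1.1e-06) and was called. The change was -0.09 in 15N (interval -0.30 to 0.12, adjusted p = 0.45). For 15AN it was -0.23 (adjusted p = 0.067). With the same total it was 0.30 in 15A (adjusted p = 0.085).

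XLOC_077451 and XLOC_077450 moved alike, with r = 0.91 between their log2 levels over 12 libraries, as a description of values that share libraries and scaling. The level of XLOC_077451 was 16.8 to 28.5 times that of XLOC_077450, and the ratio was 25.4, 18.4 and 16.8 in the 15A libraries and 26.7, 28.5 and 26.5 in the 15AN libraries. How reads in the shared interval were divided between both loci is not given in the sources used here.

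**Figure D2:**
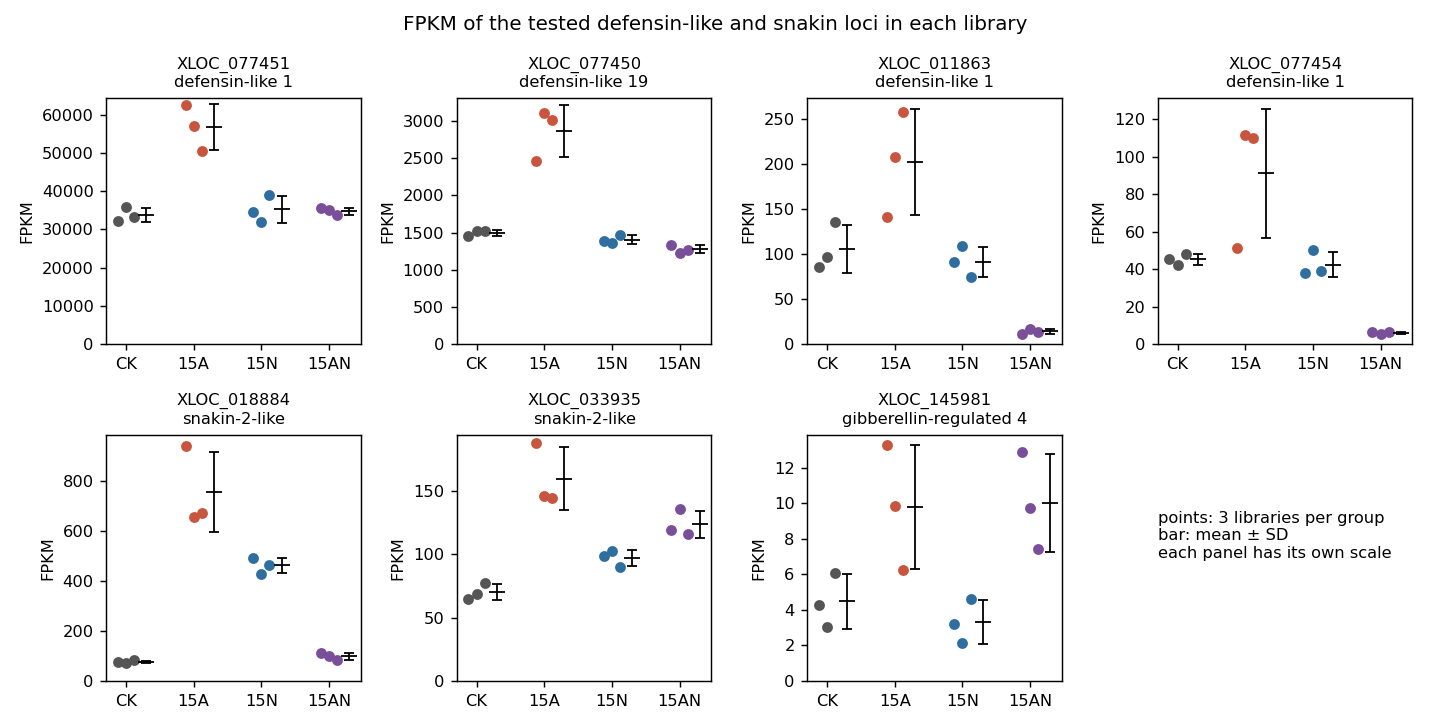
FPKM of the 7 tested members in each library, with 1 panel per member on its own linear scale. Each panel has 1 point per library, grouped by treatment, and bars for the mean ± SD of each group. XLOC_077451 lies between 31947 and 62605 FPKM, and the lowest tested member, XLOC_145981, between 2.12 and 13.3 FPKM.

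A pair of less abundant defensin-like loci had a different pattern, in which 15AN lay far below the other groups. XLOC_011863 (defensin-like protein 1, Ppse_ynau_016545, minus strand, C4942959:30380-34921) had 85.5, 96.7 and 136 FPKM in CK, against 141, 208 and 258 for 15A, 91.5, 109 and 75.0 for 15N and 11.8, 17.3 and 13.9 for 15AN. Every 15AN library lay below every other library, and the lowest 15A library lay close to the highest of CK. XLOC_011863 fell by 2.79 ± 0.25 on the log2 scale in 15AN against CK (SE, adjusted p = 1.3e-05). Its change in 15N was -0.19 (interval -0.75 to 0.36, adjusted p = 0.55). In 15A it was 0.91 (adjusted p = 0.011) and not called, but it was called without 15A replicate 1 (1.15, adjusted p = 0.0027) and without CK replicate 3 (1.10).

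XLOC_077454 carries the same description, lies on the minus strand of scaffold23887:19652-32258, and so is antisense to XLOC_077451, whose gene name the files also give it. Its FPKM was 45.6, 42.1 and 48.2 in CK, against 51.6, 112 and 110.1 for 15A, 38.2, 50.1 and 39.1 for 15N and 6.60, 5.31 and 6.33 for 15AN. The 15AN libraries were again the lowest, and 15A replicate 1 lay near CK and 15N. XLOC_077454 fell by 2.71 ± 0.25 on the log2 scale in 15AN against CK (SE, adjusted p = 1.9e-05). In 15A the change was 0.91 (adjusted p = 0.013), which was not called, and without 15A replicate 1 it was 1.28 (adjusted p = 3.1e-05) and called. The falls of XLOC_011863 and XLOC_077454 in 15AN held under all scalings, filters and left-out libraries that were run, and with the same total the log2 fold change of XLOC_011863 was -3.09.

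The stated alignment options set no strand, so reads of XLOC_077454 and of XLOC_077451 cannot be told apart with certainty. XLOC_077454 amounted to 0.118 to 0.145% of XLOC_077451 in CK, against 0.0824 to 0.217% for 15A and 0.10002 to 0.157% for 15N, while 15AN lay between 0.0152 and 0.0188%, so it did not keep a fixed share of its abundant partner. It followed XLOC_011863 on another scaffold instead, at 30.7 to 55.9% of that locus's FPKM (median 44.6%) and with r = 0.985 over 12 libraries. Both have the same description, and reads shared between near-identical copies could be divided between them, so their separate levels are uncertain. Within 15AN their order was opposite, since XLOC_011863 was highest in replicate 2, where XLOC_077454 was lowest.

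**Figure D3:**
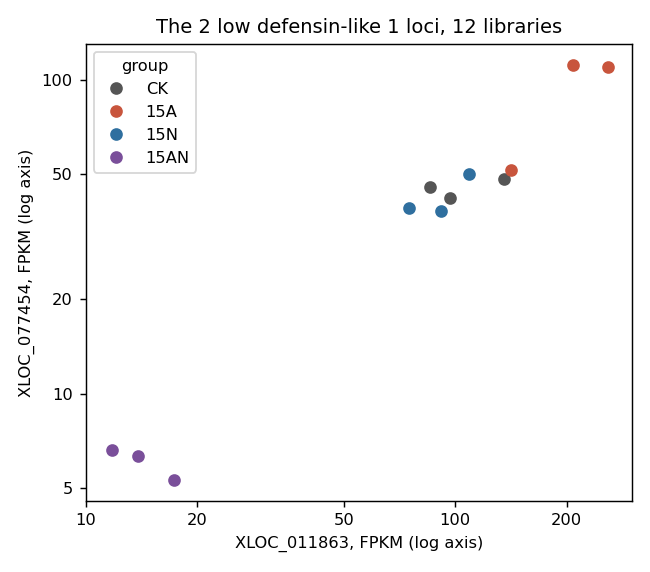
FPKM of XLOC_077454 against XLOC_011863, both described as defensin-like protein 1, in 12 libraries on log axes, with 1 point per library coloured by group. The 15AN libraries lie apart at 5.31 to 6.60 and 11.8 to 17.3 FPKM, and the CK, 15N and 15A replicate 1 points lie together.

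The snakin with the largest change was XLOC_018884 (snakin-2-like, best match in Eucalyptus grandis, Ppse_ynau_069621, plus strand, C4970465:106393-107614). Snakin-2 of potato is an antimicrobial peptide of the GASA family. The FPKM of XLOC_018884 was 75.0, 71.1 and 81.9 in CK, against 940.5, 654 and 671 for 15A, 491, 429 and 464 for 15N and 111, 98.7 and 84.3 for 15AN. Every group was separate from the others in the order CK, 15AN, 15N and 15A. The mean FPKM was 76.0 ± 5.45 (SD, n = 3) in CK, against 755 ± 161 for 15A, 461 ± 31.3 for 15N and 97.9 ± 13.2 for 15AN. XLOC_018884 rose by 3.28 ± 0.15 on the log2 scale in 15A (SE, adjusted p = 9.4e-08) and by 2.59 ± 0.15 in 15N (adjusted p = 4.7e-07). In 15AN the change was 0.35 (adjusted p = 0.072), and the log2 fold change of 15AN was -2.92 against 15A and -2.23 against 15N (adjusted p = 7.7e-07 and 4.6e-06). These calls held under all alternatives run, and with the same total the rises were 2.65 in 15A and 2.06 in 15N.

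XLOC_033935 (snakin-2-like, best match in Jatropha curcas, Ppse_ynau_021374, plus strand, scaffold13063:155560-167894) had 64.8, 68.8 and 77.5 FPKM in CK, against 189, 146 and 145 for 15A, 98.7, 102 and 89.9 for 15N and 120, 136 and 116 for 15AN. The groups again did not overlap, and their order here was CK, 15N, 15AN and 15A. It rose by 1.17 ± 0.12 on the log2 scale in 15A against CK (SE, adjusted p = 2e-05), and the call was lost with the same total (0.54) and with quantile normalization (0.82). Its change was 0.46 in 15N (adjusted p = 0.0079) and, for 15AN, 0.81 (adjusted p = 0.00031), neither of which was called. XLOC_033958, an uncharacterized protein on the other strand of the same interval, had means of 2.69 to 6.35 FPKM.

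XLOC_145981 (gibberellin-regulated protein 4, Ppse_ynau_109195, minus strand, scaffold9928:35718-37192) was a low GASA locus, which passed the filter of a 5 FPKM group mean only through 15A and 15AN, where it was high, so its calls are a description rather than support for a rise. It had 4.28, 3.04 and 6.10 FPKM in CK, against 13.3, 9.86 and 6.23 for 15A, 3.18, 2.12 and 4.62 for 15N and 12.9, 9.75 and 7.40 for 15AN. Both groups with ammonium lay above both groups without it, by a narrow margin for 15A replicate 3 over CK replicate 3. It rose by 1.02 ± 0.32 on the log2 scale in 15AN against CK (SE, adjusted p = 0.024) and by 1.36 ± 0.32 in 15AN against 15N (adjusted p = 0.01). The first call was lost with a pseudocount of 5 (0.66), with the same total (0.78), and without CK replicate 1, CK replicate 2, 15AN replicate 1 or 15AN replicate 2 (adjusted p = 0.06, 0.088, 0.088 and 0.057). The second was lost with a pseudocount of 5 (0.85). In 15A against CK the change was 0.96 (adjusted p = 0.027), just under the threshold, and in 15N it was -0.35 (adjusted p = 0.39).

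The other members were low. XLOC_062055 (gibberellin-regulated protein 11-like, Ppse_ynau_084593, minus strand, scaffold19651:251159-251650) had 2.82, 3.20 and 6.84 FPKM in CK, and 0 to 1.93 FPKM in the other 9 libraries. Its CK libraries lay above all others, but no group mean reached the 5 FPKM needed for testing. It was tested only where the filter let it in, without a filter, with the same total and without CK replicate 1, and its log2 fold change in 15A against CK was then -1.78, -2.18 and -1.98 (adjusted p = 0.0064, 0.00054 and 0.0064). XLOC_144369 (gibberellin-regulated protein 14-like) was the member closest to the limit of 1 FPKM from above, at 0.242 to 2.22 FPKM. Its 15A and 15AN libraries overlapped those of the other groups, while its 15N libraries lay above those of CK. On the other side of the limit, XLOC_015380 and XLOC_133364, described as gibberellin-regulated proteins 14-like and 12-like, were listed at 0 in every library.

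The comparisons were then read over the tested members, which were 7 of the 9 above 1 FPKM (4 defensin-like and 3 snakin or gibberellin-regulated) among 22592 tested loci. XLOC_077450, XLOC_077451 and XLOC_077454 share an interval, and XLOC_077454 may share reads with XLOC_011863. The 7 are therefore not independent in this and the later counts. In 15A against CK, 2 of 7 were called higher and none lower, where 14.3% of all tested loci were called (7.49% higher and 6.82% lower). Their median log2 fold change was 0.93, against 0.08 over all loci, and all 7 were positive with the authors' scaling. XLOC_077451 turned to -0.50 with quantile normalization, which sets a value by its rank. Without 15A replicate 1, 5 of 7 were called, and without CK replicate 3, 4 of 7 were called. In 15N against CK, 1 of 7 was called higher (XLOC_018884), beside 14.5% of all tested loci (6.85% higher and 7.64% lower), and the median was -0.09. In 15AN against CK, 1 of 7 was called higher (XLOC_145981) and 2 lower (XLOC_011863 and XLOC_077454), beside 12.2% of all tested loci (5.3% higher and 6.93% lower), and the median was 0.04. The higher call rested on a locus admitted to testing through 15A and 15AN, while XLOC_062055, highest in CK, stayed below the filter, so these counts depended on the filter.

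The treatments were also compared with each other, and the comparisons against CK above share the same 3 control libraries. In 15N against 15A, 4 of 7 members were called lower, beside 4.59% of all tested loci in either direction (1.96% higher and 2.63% lower). These were XLOC_011863 (-1.11), XLOC_077450 (-1.02), XLOC_077454 (-1.01) and XLOC_145981 (-1.31). All 4 lay close to the threshold, and 1 or 2 of 7 were called under several alternatives and left-out libraries, with 1 of 7 without 15A replicate 3. XLOC_145981 was admitted to testing only through 15A and 15AN, where it was high, so its call is a description. XLOC_018884 and XLOC_033935 were also lower in 15N, by log2 fold changes of -0.69 (adjusted p = 0.0076) and -0.71 (adjusted p = 0.0021), under the fold threshold.

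In 15AN against 15A, 4 of 7 were called lower, beside 7.83% of all tested loci (3.18% higher and 4.64% lower). XLOC_011863 had a log2 fold change of -3.70 (adjusted p = 4.7e-06), XLOC_077454 of -3.62 (adjusted p = 6.2e-06) and XLOC_018884 of -2.92 as given above. XLOC_077450 was at -1.16 (adjusted p = 1.3e-05), a call that was lost with the same total (-0.82) and with quantile normalization (-0.82). XLOC_077451 was lower by -0.70 (adjusted p = 0.0029) and not called. In 15AN against 15N, 3 of 7 were called lower (XLOC_011863, XLOC_077454 and XLOC_018884) and 1 higher (XLOC_145981), beside 6.19% of all tested loci (2.8% higher and 3.39% lower). There XLOC_077451 differed by -0.02 (adjusted p = 0.95) and XLOC_077450 by -0.14 (adjusted p = 0.3). The higher call of XLOC_145981 again rested on a locus admitted to testing through 15A and 15AN, and is a description.

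**Figure D4:**
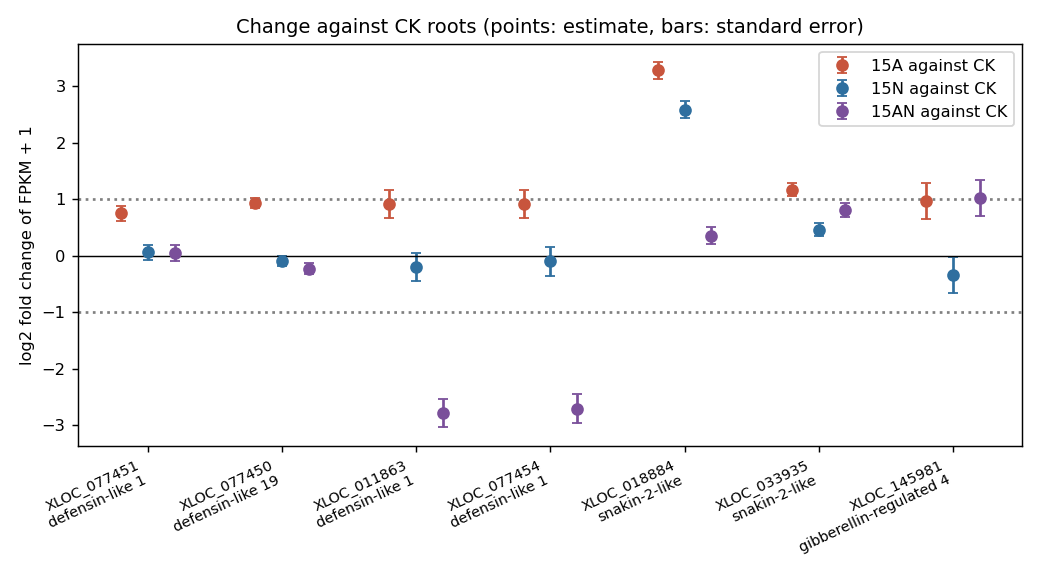
Log2 fold changes of the 7 tested members against CK in 15A, 15N and 15AN, with bars for the standard error (limma, 3 libraries per group), on the log2(FPKM + 1) scale. XLOC_018884 reaches 3.28 in 15A and 2.59 in 15N but 0.35 in 15AN, while XLOC_011863 and XLOC_077454 lie at -2.79 and -2.71 in 15AN.

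Whether nitrate had the same effect with and without ammonium was tested by the interaction. That is the change of 15AN against 15A minus the change of 15N against CK. Nitrate came as calcium nitrate in 15N and as ammonium nitrate in 15AN, while 15A held ammonium sulfate, and 15AN had the most total nitrogen. Effects of nitrate, of the accompanying ions and of total nitrogen therefore cannot be told apart here. The interaction was called lower for 4 of 7 members, beside 22.5% of all tested loci (10.2% higher and 12.3% lower). The log2 interaction was -5.51 ± 0.21 for XLOC_018884 (SE, adjusted p = 4.1e-08), since nitrate alone went with a change of 2.59 and nitrate added to ammonium with a change of -2.92. It was -3.51 ± 0.35 for XLOC_011863 (adjusted p = 2.4e-05) and -3.52 ± 0.36 for XLOC_077454 (adjusted p = 2.7e-05). For XLOC_077450 it was -1.07 (adjusted p = 9.8e-05) and became -0.20 with the same total, where it was not called. XLOC_033935 and XLOC_077451 had -0.82 (adjusted p = 0.0023) and -0.76 (adjusted p = 0.0084) with the authors' scaling and were not called, and with the same total both turned positive, at 0.05 and 0.11. That scaling moved the median interaction of all tested loci from -0.08 to 0.76, so both loci stayed below the median. In that scaling XLOC_145981 was called higher, with changes of 0.36 in 15AN against 15A and -0.78 in 15N against CK. XLOC_062055, which passed the filter there, was also called higher (2.04, adjusted p = 0.0064).

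Loci with a pattern like that of the leading members were found by Pearson's r of log2(FPKM + 1) over 12 libraries among 18290 tested loci with a description. For XLOC_077451 these were XLOC_047227 (gibberellin receptor GID1B, r = 0.98, group means 19.9, 35.7, 21.4 and 20.4 FPKM in CK, 15A, 15N and 15AN), XLOC_059867 (monodehydroascorbate reductase, r = 0.97) and XLOC_009671 (early nodulin-like protein 2, r = 0.97). For XLOC_018884 they were XLOC_045099 (an unnamed protein, r = 0.99, group means 70.9, 194, 171 and 86.6 FPKM), XLOC_107586 (dihydrolipoamide dehydrogenase, r = 0.99) and XLOC_108170 (an uncharacterized protein, r = 0.99).

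Defensins of many plants are induced through jasmonate and ethylene, so loci of these pathways were counted beside the members. Of 39 tested jasmonate and ethylene defence loci, 15A against CK had 2 called higher and 1 lower, 15N had 2 in each direction, and 15AN had 3, none of them higher. Over all tested loci 14.3, 14.5 and 12.2% were called in these comparisons. The median log2 fold changes were -0.21, -0.27 and -0.08. XLOC_078327 (lipoxygenase 2, an early enzyme of jasmonate synthesis) had means of 99.0, 254.5, 250.7 and 99.9 FPKM in CK, 15A, 15N and 15AN, and rose by 1.34 in 15A (adjusted p = 5.3e-06) and by 1.33 in 15N (adjusted p = 5.6e-06), with 0.01 in 15AN. XLOC_110896 (12-oxophytodienoate reductase 2-like) rose by 1.05 in 15A (adjusted p = 1.7e-06) and by 1.27 in 15N (adjusted p = 4.9e-07), and its change of 0.47 in 15AN was not called. XLOC_031705 (MYC2-like, a transcription factor of jasmonate responses) fell, with log2 fold changes of -1.42 in 15N and -1.35 in 15AN (adjusted p = 1e-06 and 2.4e-06). It was also lower in 15A, by a log2 fold change of -0.87 (adjusted p = 2.8e-05) that was not called. XLOC_103770 (TIFY 5A, of the family of jasmonate repressors) fell, with log2 fold changes of -1.30 in 15N and -1.98 in 15AN (adjusted p = 0.00023 and 1.8e-05). Its change of -0.63 in 15A (adjusted p = 0.015) had the same direction and was not called.

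Of 16 tested loci of gibberellin synthesis and signalling, the hormone after which the GASA family is named, 15A against CK had 1 called in each direction, 15N had 1 higher with 3 lower, and 15AN had 2, both of them higher, beside the same 14.3, 14.5 and 12.2% of all tested loci. The median log2 fold changes were -0.21, -0.03 and -0.07. XLOC_023048, a DELLA protein, which holds gibberellin responses back,, had means of 21.8, 53.5, 104.5 and 66.7 FPKM in CK, 15A, 15N and 15AN and rose in all 3 treatments, by 1.13, 2.21 and 1.56 (adjusted p = 0.014, 0.00028 and 0.003). XLOC_030255 (gibberellin receptor GID1C) fell by 1.36 in 15N (adjusted p = 8e-06), with changes of -0.88 in 15A and -0.84 in 15AN that were not called. XLOC_049694 (a DELLA repressor) fell by 1.01 in 15N (adjusted p = 0.00016), with changes of -0.60 in 15A and -0.83 in 15AN that were not called. XLOC_054777 (DELLA protein GAIP) had means of 6.09, 0.451, 1.24 and 23.1 FPKM in CK, 15A, 15N and 15AN.

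Of 34 tested loci for other antimicrobial peptides and small defence proteins, 15A against CK had 2 called higher and 8 lower, 15N had 4 higher with 8 lower, and 15AN had 1 higher with 7 lower. Over all tested loci 7.49, 6.85 and 5.3% were called higher and 6.82, 7.64 and 6.93% lower. The median log2 fold changes of the list were -0.15, -0.48 and -0.34. XLOC_037063, described as a g-thionin of Panax ginseng (gamma-thionin is an older name for plant defensins), falls in this list because its description does not use the word defensin. Its FPKM was 1888, 2235 and 1970 in CK, against 1049, 721 and 884 for 15A, 541, 434 and 524 for 15N and 966, 958 and 1076 for 15AN. The CK libraries lay above all others and the 15N libraries below all others. It fell in the 3 treatments, with log2 fold changes of -1.21, -2.02 and -1.02 for 15A, 15N and 15AN (adjusted p = 5.6e-05, 1.8e-06 and 0.00024). XLOC_012200 (thaumatin-like protein 1b) rose in all 3 treatments, by 2.15, 2.12 and 1.17 (adjusted p = 1.5e-07, 1.9e-07 and 1.2e-05).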

How the data were processed

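The deposited values are FPKM per assembled locus and library, made by the authors with TopHat2 2.0.13 and Cufflinks 2.2.1 and scaled with Cuffnorm 2.2.1 from libraries depleted of ribosomal RNA. Reads that map to several places were divided by Cuffquant's multi-read correction. The descriptions came with the files. FPKM are not counts, so no count model was used. The log2(FPKM + 1) of all 12 libraries were fitted in 1 model with limma 3.58.1 (empirical Bayes with a mean trend, R 4.3.3), for loci whose mean reached 5 FPKM in any group, and p-values were adjusted by Benjamini-Hochberg over 22592 loci. The test was tried on simulated data with independent noise, and with changes set only in the more abundant loci. That trial does not cover low loci or the choice of scaling. Calls needed a log2 fold change beyond 1 in size together with an adjusted p below 0.05.

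The members and lists were chosen with earlier results of these data known. Every tested member is named, with up to 4 called loci of each list and the 3 loci most like XLOC_077451 and XLOC_018884. List terms were matched as any part of the description, with limits on some terms set after partial matches had been seen. TIFY, EIN3, DELLA and thionin had to begin a word, and ethylene-responsive transcription factor 1 could not be followed by another digit. Alternatives were other pseudocounts (0.1 and 5), filters (none and 10 FPKM), scalings, a fit of the groups compared only, a replicate block and leaving out each library. Locus positions are those of the authors' files, with the start counted from 1.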

Additional observations from a re-analysis of the deposited data

Results flagged for a closer look

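A difference in the effect of nitrate with and without ammonium was found for 6 of the 7 tested members at an adjusted p under 0.05 (limma, interaction), whatever its size. The share of all tested loci at this cut was not computed, so the count has no background. With a log2 fold change over 1 in size as well, 4 of the 7 were called, beside 22.5% of all tested loci. Accompanying ions and total nitrogen differed too, as given above. The interaction was -5.51 for XLOC_018884, whose change was 2.59 in 15N against CK and -2.92 in 15AN against 15A. For XLOC_011863 it was -3.51, with changes of -0.19 and -3.70, and for XLOC_077454 it was -3.52, with changes of -0.10 and -3.62. XLOC_077450 had -1.07, XLOC_033935 had -0.82 and XLOC_077451 had -0.76. With all libraries at the same total these became -0.20 (adjusted p = 0.4), 0.05 and 0.11, so for these 3 loci the interaction depended on the scaling. The median interaction of all tested loci moved from -0.08 to 0.76 with that scaling. The interaction of XLOC_077451 also had an adjusted p of 0.051 with a pseudocount of 0.1 and of 0.59 without a filter, at an unchanged -0.76. With 3 libraries per group no outlier test was run on single libraries, and only the effect of leaving each one out is given.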

How the results depend on the processing

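Of 769 values recomputed for 49 combinations of member and comparison, 710 kept their direction and side of the threshold, 32 lost and 9 gained the call, and 18 changed sign. The calls of XLOC_018884, and the falls of XLOC_011863 and XLOC_077454 in 15AN, kept theirs under all alternatives run. With the same total, 2 members in place of 1 were called in 15N against CK, the second being XLOC_062055 (-1.49), which passed the filter only there, without a filter and without CK replicate 1. In the interaction with the same total, XLOC_145981 and XLOC_062055 were called higher, and XLOC_077450 lost its call. The median interaction of all tested loci was 0.76 there. In 15N against 15A, 4 members were called, and 2 with a pseudocount of 5, the same total, quantile normalization, or the compared groups alone. With each library left out in turn, 2 to 5 members were called in 15A against CK, 1 to 2 in 15N against CK, 2 to 3 in 15AN against CK, 1 to 4 in 15N against 15A, 4 in 15AN against 15A and in 15AN against 15N, and 4 to 5 in the interaction. Without a filter, 3 were called in 15A and 4 in 15AN against CK, of which 2 and 3 were among the 7 and the other was XLOC_062055. It also added 1 call in each comparison with CK, and in the interaction, when CK replicate 1 was left out.

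Signs changed as follows, and beyond the change of scale the cause was not tested. With the same total, XLOC_077451 was -0.47 in 15N and -0.25 in 15AN against CK, 0.23 in 15AN against 15N and 0.11 in the interaction, XLOC_033935 was -0.067 in 15N against CK and 0.049 in the interaction, and XLOC_077450 was 0.10 in 15AN against 15N. With quantile normalization, XLOC_077451 was -0.50 for 15A, -0.90 for 15N and -0.50 for 15AN against CK, 0.40 in 15AN against 15N and 0.90 in the interaction, and XLOC_077450 was 0.090 in 15AN against 15N. These values of XLOC_077451 follow its rank among the most abundant loci, as given above. With each library left out in turn, XLOC_077451 ranged from -0.0196 (without 15N replicate 3) to 0.126 in 15N against CK, and from -0.0835 to 0.0622 in 15AN against 15N, where it was positive without 15N replicate 3 or 15AN replicate 3. XLOC_145981 in 15AN against 15A ranged from -0.21 to 0.28, and was negative without 15A replicate 3 or 15AN replicate 1 (-0.13).

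The replicate numbers did not pair the libraries. The correlations of deviations in the 18 same-numbered pairs lay between -0.0998 and 0.0505, and 2 of 12 libraries correlated best with their own number in every other group. With a replicate block, 2, 1, 3, 4, 4, 4 and 4 members were called in the 7 comparisons in the order given in the report, as many as without it.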

Other observations

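Loci that match the terms only in a later description, chosen after their values were seen, were low. XLOC_089418, described as peamaclein, a GASA-type protein known as an allergen of peach, had 0.547 to 5.29 FPKM, with group means of 1.11 in CK, against 2.77 for 15A, 3.48 for 15N and 0.873 for 15AN. The 15N libraries (2.19 to 4.50 FPKM) lay above those of CK and 15AN and overlapped those of 15A. XLOC_086041 and XLOC_111307 reached at most 1.29 and 0.749 FPKM.

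XLOC_136693, a lipid transfer protein from the list of other small defence proteins, had means of 1139 ± 29.0 (SD, n = 3) FPKM in CK, against 2100 ± 1114 for 15A, 2886 ± 151 for 15N and 1085 ± 37.6 for 15AN. It rose by 1.34 on the log2 scale in 15N (limma, adjusted p = 0.002), and its change of 0.76 in 15A (adjusted p = 0.036) was not called. XLOC_111509, a lipid transfer protein like DIR1, which takes part in systemic acquired resistance in Arabidopsis, fell, with log2 fold changes of -1.27 in 15A and -1.89 in 15N (adjusted p = 4.1e-05 and 2.9e-06). Its change of -0.49 in 15AN (adjusted p = 0.016) was not called.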
